A study of Mus musculus with 12 samples.

Results

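The genes described here code for 7 ion channels of sensory neurons: the TRP channels Trpv1, Trpv2, Trpa1 and Trpm8, the touch channel Piezo2, and the pacemaker channels Hcn2 and Hcn3. They were chosen by gene symbol, as transduction channels for heat, irritants, cold and touch and as HCN channels. All 7 were among the 23238 gene symbols of the count files, each on a single row, and all 7 were among the 15036 genes that passed a filter on low counts and were tested. Messenger RNA came from dorsal root ganglia of lumbar levels L3 to L5, which hold the cell bodies of sensory neurons that send axons into the sciatic nerve. The mice were C57BL/6 animals at postnatal week 8, and the labels name no mutant allele, transgene or drug in any group. Mice of each sex had either an injured sciatic nerve (SNI) or a sham operation. The 4 groups (Female sham, Female SNI, Male sham and Male SNI) had 3 libraries each. Neither the kind of injury nor the time from operation to dissection is stated in the labels. Nothing in the labels says that the 3 libraries of a group came from separate animals, so a p-value is measured against a spread that may be technical.

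TRP channels are cation channels that open to temperature or chemicals. Trpv1 codes for the heat and capsaicin receptor, Trpa1 for a receptor of pungent irritants, and Trpm8 for the cold and menthol receptor, each found in subsets of small sensory neurons. Trpv2 is carried by medium and large sensory neurons and by macrophages. Piezo2 forms the mechanically gated channel that serves touch and proprioception. HCN channels open on hyperpolarisation, are helped to open by cyclic AMP, and set the readiness of a neuron to fire again.

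The total count per library was 12476606 to 15520746, and the 3′ end of transcripts was read, so that a count stands for a read and not for a transcript length. Levels are in CPM, the share of a library's counts that fell on a gene, with library totals scaled by TMM factors (edgeR's correction for composition). Xist was at 133 to 171 CPM in the 6 female libraries and at most 0.154 CPM in the 6 male libraries, and the injury marker Atf3 was at 275 to 361 CPM in SNI and at 43.6 to 56.7 CPM in sham libraries. Of 7 sensory neuron markers 6 were in the files, with a summed level of 5288 to 6805 CPM in every library. A list of 6 central nervous system markers summed to 37.3 to 88.3 CPM: Slc17a7 had group means of 37.7 to 58.2 CPM and Aqp4 of 3.69 to 5.35 CPM, Olig1, Olig2 and Mog had 8, 6 and 4 counts in the Male SNI libraries and at most 1 in any other group, and Neurod6 had none. The Male SNI counts of Olig1 and Olig2 all came from replicate 1, the library with 1454 CPM of skeletal muscle markers. Most of each sum was Slc17a7, so the sum does not measure central nervous system tissue, and the source of Slc17a7 was not tested. The part of these genes in the results was not tested either. Male SNI replicate 2 and Female sham replicate 2 stood apart on the first principal component of log2 CPM, with scores of 99.9 and 47.5 against -32.8 to 0.963 in the others. Results that rest on either are given with and without them.

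Of the 7 channel genes, Hcn2 was the 1 that passed the test after injury. Averaged over the sexes its level was 64.3% of sham, a log2 change of -0.64 ± 0.10 (SE; adjusted p = 0.000979, edgeR's quasi-likelihood test with Benjamini-Hochberg adjustment over all tested genes, two-sided). In females Hcn2 also fell (adjusted p = 0.00185). Among all tested genes 6.52% passed in either direction for injury averaged over the sexes and 2.73% passed downward, so that 1 called member of 7 is not far from what the whole table gives. The point estimates of 5 members lay below 0 and those of 2, Trpv2 and Hcn3, above it. Their median was -0.23, and the median of all tested genes was 0.00. In females 1 of 7 passed, against 2.89% of tested genes. In males none of 7 passed with edgeR, against 2.13% of tested genes. There 2 members, Trpm8 and Hcn2, had an unadjusted p under 0.05, as did 2185 of all tested genes. DESeq2 called 1 member in males (Trpm8) among 666 genes called, and limma called no member among 693.

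**Figure D1:**
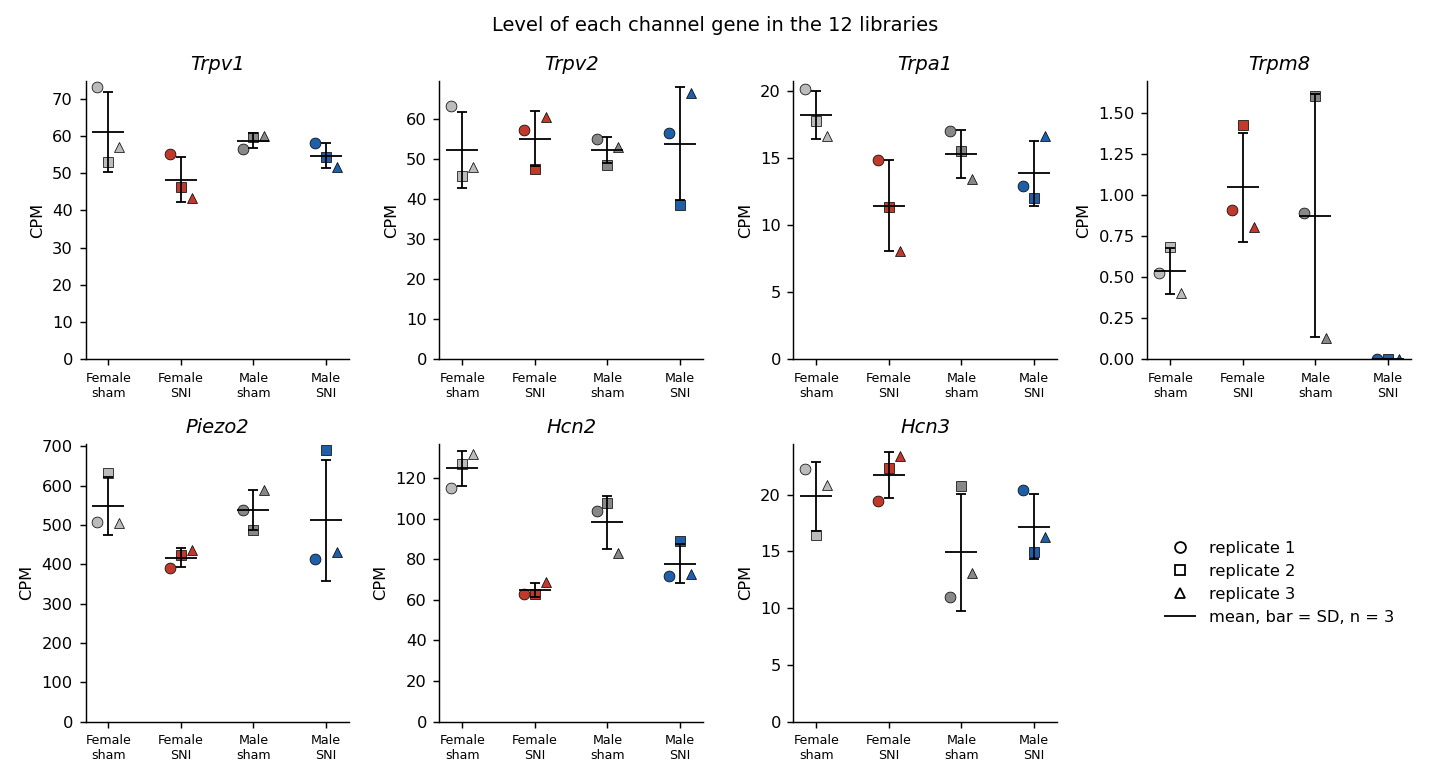
Level of each of the 7 channel genes in CPM (vertical axes, each from 0) in the 12 libraries, by group; symbols mark the replicate number, and the horizontal line and bar give mean and SD of 3 libraries. Hcn2 shows a gap between sham and SNI libraries in females (115 to 132 against 62.7 to 68.9 CPM), and Trpm8 is at 0 in all Male SNI libraries. A gap in the direction of Hcn2 in females was found in 13.4% of tested genes.

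The windows from 250 bases before to 50 bases after the transcript start are shown for Hcn2, the member that passed the test, and for Trpm8, the member whose SNI and sham libraries separated in opposite directions in the sexes. RefSeq's table for GRCm38.p6, the build also called mm10, held such windows for 4 of the 7 members. Both windows are on the plus strand, Hcn2 at chr10:79716384-79716683 and Trpm8 at chr1:88306485-88306784. Capitals mark matches on either strand to a GC box (GGGCGG) or a TATA box (TATAAA).
Hcn2: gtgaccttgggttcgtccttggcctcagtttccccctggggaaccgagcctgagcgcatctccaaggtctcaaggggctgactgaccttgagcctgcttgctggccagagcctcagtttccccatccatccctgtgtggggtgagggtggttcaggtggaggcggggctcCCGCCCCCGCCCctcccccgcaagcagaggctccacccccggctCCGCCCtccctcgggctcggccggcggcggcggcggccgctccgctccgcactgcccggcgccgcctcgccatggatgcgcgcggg
Trpm8: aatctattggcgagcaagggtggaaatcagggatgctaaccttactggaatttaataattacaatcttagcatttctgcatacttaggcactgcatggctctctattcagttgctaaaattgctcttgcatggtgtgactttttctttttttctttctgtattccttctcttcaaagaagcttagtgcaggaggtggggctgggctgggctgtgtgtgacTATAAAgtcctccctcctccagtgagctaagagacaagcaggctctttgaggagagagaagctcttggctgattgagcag
The Hcn2 window had a GC content of 72.3% and held 3 GC boxes, at positions 171, 177 and 215 counted from its first base, and no TATA box. The first 2 of them abut without sharing a base. The Trpm8 window had a GC content of 44.3% with a TATA box at position 221 and no GC box. Over all 32851 windows of the table the median GC content was 52.7%, 35.7% held a GC box and 13.6% a TATA box. An AP-1 site (TGANTCA, in 7.81% of all windows) and a cyclic AMP response element (TGACGTCA, in 1.79%) were also searched on both strands. Neither window contained these letters. A match to letters is a description of the sequence and not a site of binding.

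Trpv1, the heat and capsaicin receptor, had no change that passed the test. Its 3 Female sham libraries were at 73.3, 52.9 and 57.1 CPM and its 3 Female SNI libraries at 55.2, 46.4 and 43.4 CPM, and the ranges overlapped. Male sham libraries were at 56.6, 59.8 and 60.0 CPM and Male SNI libraries at 58.3, 54.3 and 51.8 CPM, which also overlapped. The log2 change was -0.22 ± 0.10 averaged over the sexes (adjusted p = 0.281), -0.34 ± 0.15 in females (adjusted p = 0.289) and -0.10 ± 0.15 in males (adjusted p = 0.805). In order of mean level the groups were Female sham (61.1 ± 10.7 CPM, SD, n = 3), Male sham (58.8 ± 1.92), Male SNI (54.8 ± 3.28) and Female SNI (48.3 ± 6.15). Each group's range overlapped that of the next in order.

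Trpv2, whose protein passes cations after heat or mechanical stimuli in cell lines, had no change that passed the test in either sex. The mean levels were 55.0 ± 6.85 CPM in Female SNI, 53.7 ± 14.2 in Male SNI, 52.2 ± 9.44 in Female sham and 52.1 ± 3.24 in Male sham libraries. Each group mean lay within the larger SD of the next in order, and all neighbouring ranges overlapped. The widest group was Male SNI, with libraries at 56.5, 38.4 and 66.3 CPM. The log2 change averaged over the sexes was 0.06 ± 0.14 (adjusted p = 0.892). It turned to -0.03 when Male SNI replicate 3 was left out. Macrophages, which also carry Trpv2, had markers with a summed level of 118 to 190 CPM in sham and 271 to 452 CPM in SNI libraries, with 10 of 11 tested markers higher after injury. Their part in the level of Trpv2 was not tested.

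Trpa1, the irritant receptor, had the largest negative point estimate among the TRP members with counts in every library. Female sham libraries were at 20.2, 17.8 and 16.6 CPM and Female SNI libraries at 14.9, 11.4 and 8.08 CPM. All Female SNI libraries lay below all Female sham libraries, a pattern shared by 13.4% of tested genes in females. The log2 change in females was -0.67 ± 0.23 (adjusted p = 0.17). Male sham libraries were at 17.0, 15.5 and 13.4 CPM and Male SNI libraries at 12.9, 12.1 and 16.6 CPM, with overlapping ranges and a log2 change of -0.14 ± 0.23 (adjusted p = 0.832). Averaged over the sexes Trpa1 was at -0.40 ± 0.16 (adjusted p = 0.197), and it did not pass in any of the 21 alternatives tried. The groups fell in the order Female sham (18.2 ± 1.79 CPM), Male sham (15.3 ± 1.79), Male SNI (13.9 ± 2.43) and Female SNI (11.4 ± 3.41), and the ranges of neighbours in this order overlapped.

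Trpm8, the cold and menthol receptor, was the member with the fewest reads, 0 to 21 per library. Male SNI libraries had 0, 0 and 0 counts, and Male sham libraries had 12, 21 and 2. All SNI libraries of the males therefore lay below all sham libraries, as in 8.83% of tested genes. Female SNI libraries had 14, 21 and 11 counts (0.910, 1.43 and 0.808 CPM), all above the Female sham libraries with 7, 9 and 6 counts (0.524, 0.681 and 0.404 CPM), as in 13.1% of tested genes. With the floor of 3 counts over the 3 Male SNI libraries together, 0.0751 CPM, the pooled level in Male sham libraries (0.828 CPM) was at least 11.03-fold higher. Of the 35 Male sham counts 21 came from replicate 2, and the limit was 6.39-fold without that library and 16.6-fold without replicate 3. That floor covers counting error only. The test of injury in males gave adjusted p = 0.0508, just short of the threshold, and p between 0.0038 and 0.171 over 21 alternatives, of which 6 passed. Trpm8 passed the filter on low counts only with the Female SNI libraries, the group where it was highest. A fit of the male libraries alone dropped it, so that fit is missing from the alternatives. In females adjusted p was 0.692.

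The opposite separation of Trpm8 in the sexes was tested as an interaction. Its unadjusted p was 0.00138 and its adjusted p 0.647, so that the sexes are not shown to differ over all tested genes. No gene of 15036 (0%) passed the interaction with edgeR, 1100 had an unadjusted p under 0.05, and DESeq2 and limma also called none. Of the tested genes 0.273% had Female SNI above and Male SNI below their sham libraries without overlap. The 4 cold thermoreceptor markers Foxp2, Cdh8, Gpr26 and Penk had summed levels of 12.9 to 22.2 CPM in Female sham, 22.5 to 25.5 in Female SNI, 22.04 to 26.1 in Male sham and 12.6 to 27.7 in Male SNI libraries, and none of the 4 passed the test of injury averaged over the sexes. Opposite changes in the sexes cancel in that average, so it cannot say whether these markers followed Trpm8. In a bulk sample, fewer cells of a type and less RNA per cell cannot be told apart.

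Piezo2, the touch channel gene, was lower in 5 of 6 SNI libraries than in every sham library, and did not pass the test. The share of tested genes with this pattern was not counted. Female sham libraries were at 507, 633 and 506 CPM and Female SNI libraries at 391, 423 and 437 CPM, with no overlap. In 13.4% of tested genes all Female SNI libraries lay below all Female sham libraries. In males the sham libraries were at 539, 487 and 588 CPM and the SNI libraries at 414, 690 and 432 CPM. Male SNI replicate 2 was the highest of all 12 libraries, and the other 2 Male SNI libraries lay below all sham libraries. The log2 change was -0.23 ± 0.12 averaged over the sexes (adjusted p = 0.358), -0.40 ± 0.18 in females (adjusted p = 0.306) and -0.07 ± 0.18 in males (adjusted p = 0.897). Without Male SNI replicate 2 the averaged change was -0.37 ± 0.08 and passed (adjusted p = 0.00531). Without it and Female sham replicate 2 the change was -0.31 ± 0.07 (adjusted p = 0.00519), and limma with sample quality weights gave -0.32 ± 0.08 (adjusted p = 0.00803). Over all genes these settings called 1766, 1848 and 2008, in the order given, against 980 with the main settings.

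In order of level, Piezo2 was at 549 ± 73.3 CPM in Female sham, 538 ± 50.6 in Male sham, 512 ± 155 in Male SNI and 417 ± 23.6 in Female SNI libraries, and each range overlapped the next. Markers of low-threshold mechanoreceptors and proprioceptors, the neurons known for Piezo2, had summed levels of 3811 to 5042 CPM in Female sham, 2917 to 3049 in Female SNI, 4424 to 4712 in Male sham and 2907 to 4187 in Male SNI libraries. The highest of the Male SNI values, 4187 CPM, was also that of replicate 2. Most of these sums lay in Nefh, at 3656 ± 570 CPM in Female sham and 2408 ± 46.8 in Female SNI libraries. In Male sham and Male SNI libraries Nefh was at 3822 ± 155 and 2901 ± 643 CPM. Of these 9 markers 4 fell and none rose after injury averaged over the sexes. When libraries were scaled by the geometric mean of 12 pan-neuronal genes, which shifts the median of all genes by 0.16, the averaged change of Piezo2 was -0.08 ± 0.12.

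**Figure D2:**
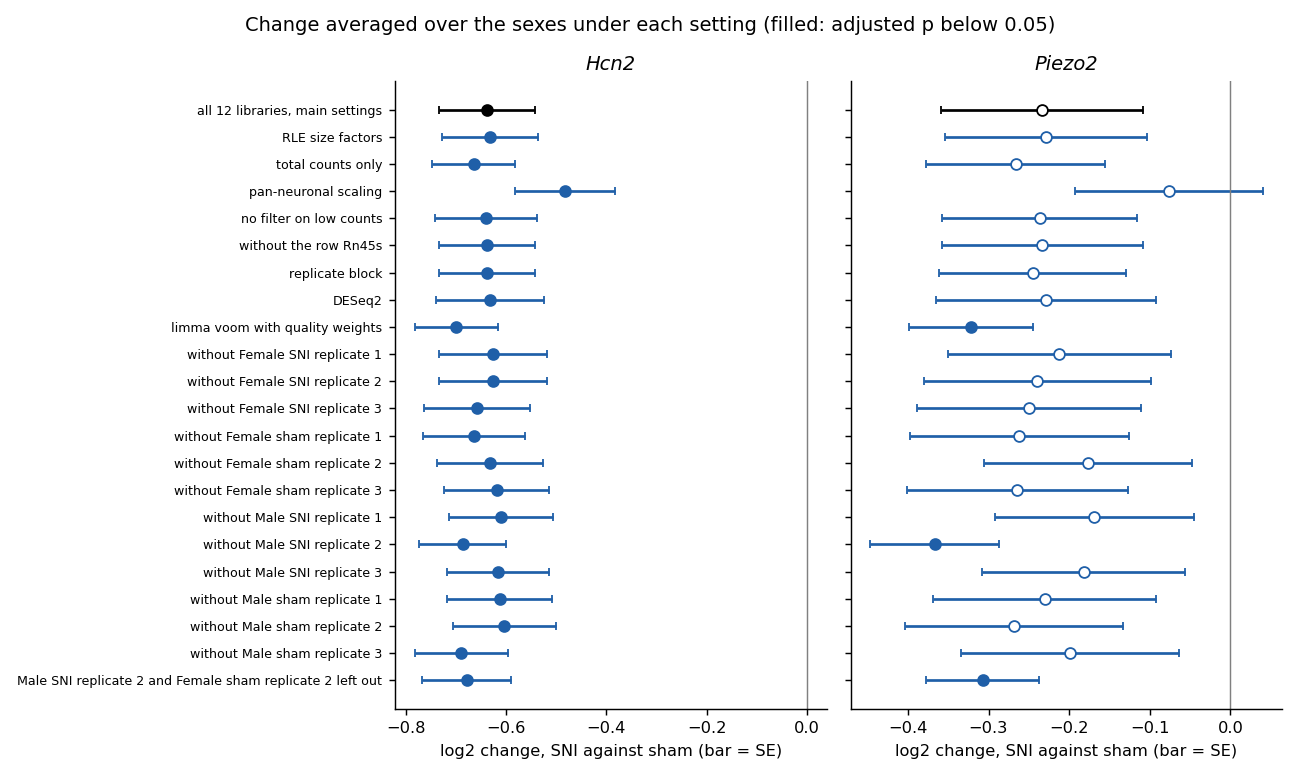
Log2 change of Hcn2 and Piezo2 after injury averaged over the sexes (horizontal axes; bars are SE) under the main settings and each of 21 alternatives, with filled symbols where adjusted p was below 0.05. Hcn2 stayed between -0.70 and -0.48 and passed in all of them. Piezo2 passed in 3, of which 2 leave out Male SNI replicate 2 and the other is limma. With limma that library had a quality weight of 0.168 against 0.598 to 1.95 in the others. The settings where Piezo2 passed called 1766 to 2008 genes in all, against 980 with the main settings.

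Hcn2 codes for a pacemaker channel whose opening cyclic AMP favours, and which in mice has been tied to inflammatory and neuropathic pain. Female sham libraries were at 115, 127 and 132 CPM and Female SNI libraries at 62.7, 63.1 and 68.9 CPM. Every Female SNI library lay at 50.3% to 55.3% of the Female sham mean. The log2 change in females was -0.94 ± 0.14 (adjusted p = 0.00185), and it passed in all 22 alternatives with a value between -1.001 and -0.75. Male sham libraries were at 104, 108 and 83.0 CPM and Male SNI libraries at 71.7, 89.2 and 72.8 CPM. Male SNI replicate 2 and Male sham replicate 3 crossed, so that the male ranges overlapped. The log2 change in males was -0.33 ± 0.14 (adjusted p = 0.267), it stayed below 0 and passed in none of 22 alternatives, and without Male SNI replicate 2 it was -0.44 ± 0.13 (adjusted p = 0.0823).

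The difference of the sexes in the change of Hcn2 was 0.61 ± 0.19 (males minus females on the log2 scale), with an unadjusted p of 0.00665 and an adjusted p of 0.647. It is therefore not shown that the change in females differed from that in males. The groups fell in the order Female sham (125 ± 8.58 CPM), Male sham (98.1 ± 13.3), Male SNI (77.9 ± 9.80) and Female SNI (64.9 ± 3.49). The ranges of Female sham and Male sham did not overlap, nor did those of Female SNI and Male SNI, while Male sham and Male SNI overlapped. The share of tested genes with such gaps between the sexes was not counted, so the gaps do not show a difference of the sexes. The difference of males against females in sham was -0.35 ± 0.13 (adjusted p = 0.938), and after injury it was 0.26 ± 0.14 (adjusted p = 0.882). None of the 7 members passed in either comparison with edgeR, against 0.0399% of tested genes in each. In each comparison 1 member had an unadjusted p under 0.05, as did 687 tested genes in sham and 654 after injury. DESeq2 called 1 member (Trpm8, after injury) among 10 genes called there, and limma called no member.

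Summed levels of neuronal markers were also lower in Female SNI than in Female sham libraries. The summed level of 12 pan-neuronal genes ranged over 9638 to 10978 CPM (Female sham), 8342 to 8730 CPM (Female SNI), 9312 to 10003 CPM (Male sham) and 8833 to 12018 CPM (Male SNI). Of these 12 genes 1 fell and none rose after injury averaged over the sexes. Most of the lower sum in females lay in Uchl1, a ubiquitin hydrolase of neurons, with 5540 ± 614 CPM in sham and 4408 ± 191 CPM in SNI libraries, while the means of Thy1, Nsf and Rtn1 were higher in Female SNI. Their part in the change of Hcn2 was not tested. Scaled by these genes instead of TMM, Hcn2 still fell (log2 change -0.48 ± 0.10, adjusted p = 0.00719), while the median of all genes moved to 0.16. Peptidergic nociceptor markers were at 2610 to 2905 CPM in Female sham and 1934 to 2243 in Female SNI libraries, and at 2666 to 2871 in Male sham and 1975 to 2293 in Male SNI libraries, with 5 of 6 markers lower after injury. Nonpeptidergic nociceptor markers were at 943 to 1023 CPM against 715 to 776 in females and at 889 to 959 against 751 to 972 in males, with 2 of 6 lower. Scn11a is on both nociceptor lists and is counted as lower in each. Calca, the peptidergic marker with the highest mean level, did not pass (log2 change -0.29 ± 0.14, adjusted p = 0.313).

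**Figure D3:**
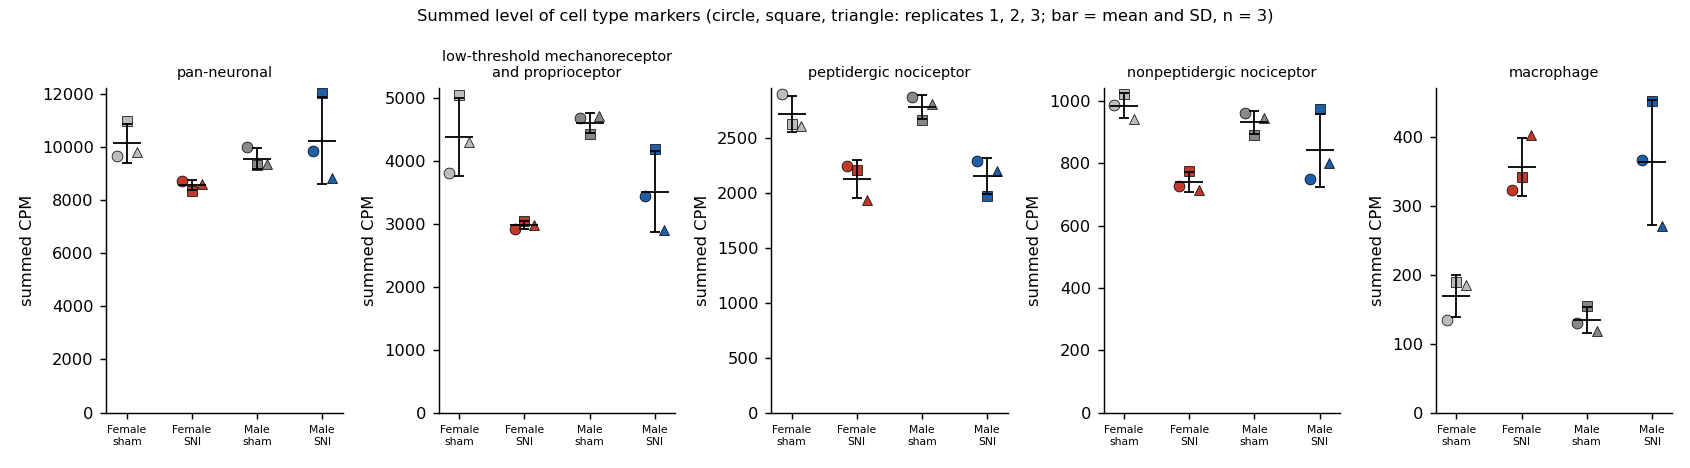
Summed CPM (vertical axes, from 0) of pan-neuronal, mechanoreceptor and proprioceptor, peptidergic and nonpeptidergic nociceptor, and macrophage markers in each library by group, with mean and SD of 3 libraries. The neuron class sums are lower in Female SNI than in Female sham libraries, the macrophage sum is higher in SNI libraries of both sexes, and Male SNI replicate 2 (square) is the highest of its group in 4 of the 5 panels.

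Hcn3, a pacemaker channel on which cyclic AMP has little effect, was not changed beyond the spread. Female sham libraries were at 22.3, 16.4 and 20.8 CPM and Female SNI libraries at 19.4, 22.3 and 23.4 CPM. Male sham libraries were at 10.99, 20.7 and 13.1 CPM and Male SNI libraries at 20.4, 14.9 and 16.2 CPM. The ranges overlapped in both sexes. The averaged log2 change was 0.17 ± 0.17 (adjusted p = 0.682), with 0.13 ± 0.24 in females and 0.20 ± 0.24 in males. In order of level the groups were Female SNI (21.7 ± 2.05 CPM), Female sham (19.8 ± 3.04), Male SNI (17.2 ± 2.87) and Male sham (14.9 ± 5.14), with overlap between neighbours. The exons of Hcn3 overlap those of Pklr, a gene on the opposite strand, over 711 bases, all in the last 1000 bases of the gene on its strand, the end that 3′ sequencing reads. The labels and headers do not say how strand was counted, so the value of Hcn3 is uncertain; Pklr itself was at 1.38 to 5.13 CPM.

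**Figure D4:**
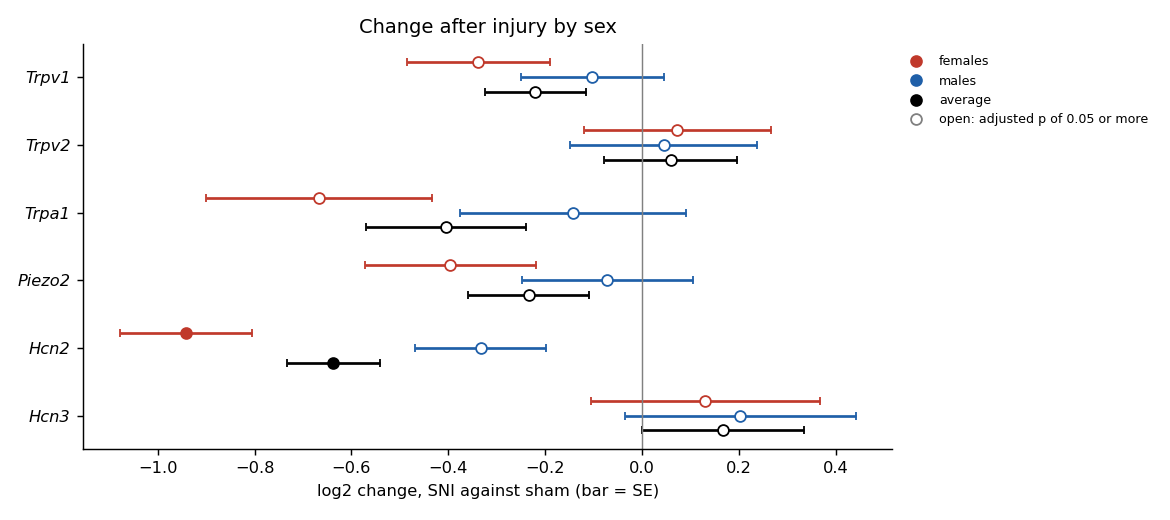
Log2 change after injury against sham (horizontal axis; bars are SE) in females, males and averaged over the sexes for 6 channel genes, with filled symbols where adjusted p was below 0.05. Trpm8 is left out because a fitted change against libraries without counts depends on the added prior. Hcn2 has the only filled symbols, at -0.94 in females and -0.64 for the average.

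The members lie on different chromosomes of GRCm38.p6, apart from 2 pairs. Trpv1 (73234149 to 73261322) and Trpv2 (62574486 to 62600305) are on the plus strand of chromosome 11. Trpa1 (14872644 to 14918862, minus strand) and Trpm8 (88306735 to 88388853, plus strand) are on chromosome 1. Piezo2 is on chromosome 18 (63010213 to 63387716, minus strand), Hcn2 on chromosome 10 (79716634 to 79736108, plus strand) and Hcn3 on chromosome 3 (89146775 to 89160284, minus strand). In GENCODE vM21 no exon of another gene overlaps those of Trpv1, Trpv2, Trpa1, Piezo2 or Hcn2. Exons of Trpm8 overlap those of the antisense gene 4930453O03Rik over 388 bases, none of them in the last 1000 bases.

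Among the other HCN and cyclic nucleotide gated channels and HCN partner proteins, 6 of 14 genes were tested and none passed with edgeR. In this list 2 had an unadjusted p under 0.05, DESeq2 called none, and limma with quality weights called 2 lower. Over all tested genes DESeq2 called 1385 and limma 2008 in either direction, and lower calls alone were not counted. Pex5l, named after its values were seen, codes for TRIP8b, a subunit that steers HCN channel traffic, and was at -0.39 ± 0.13 (adjusted p = 0.103). Nedd4l, a ubiquitin ligase and the gene with the most counts in this list, was at -0.26 ± 0.10 (adjusted p = 0.155), and its exons overlap those of the antisense gene A330084C13Rik over 277 bases. The median change of the list was -0.31.

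Of 25 genes of the cyclic AMP pathway 24 were tested, of which 1 rose and 2 fell after injury averaged over the sexes, with a list median of -0.11. Of all tested genes 6.52% passed in that comparison in either direction. Pde4b, a phosphodiesterase that breaks down cyclic AMP, rose by 0.67 ± 0.10 (adjusted p = 0.000596), its mean level going from 51.7 ± 1.86 to 74.1 ± 0.276 CPM between the female groups and from 43.1 ± 3.67 to 76.5 ± 12.4 CPM between the male groups. Prkar2b, a regulatory subunit of protein kinase A, fell (log2 change -0.62 ± 0.11, adjusted p = 0.00393), its mean level going from 457 ± 80.7 to 315 ± 20.1 CPM between the female groups and from 459 ± 48.1 to 282 ± 51.3 CPM between the male groups. Both passed in each of the 12 fits that left out 1 library. Pde4d, a further phosphodiesterase, was at -0.46 ± 0.11 (adjusted p = 0.0273) and passed in 5 of those 12 fits: its call was lost on leaving out replicate 1 or 2 of Female SNI, 2 or 3 of Female sham, 1 of Male SNI, and 1 or 3 of Male sham. Gnas, the stimulatory G protein subunit, was at -0.15 ± 0.07 (adjusted p = 0.307; its exons overlap those of antisense Gm20721 over 1469 bases and Nespas over 988 bases) and Prkar1a at -0.10 ± 0.15 (adjusted p = 0.798). Within single sexes, Pde4b (0.83 ± 0.14) and Prkar2b (-0.70 ± 0.16) passed in males (adjusted p = 0.00464 and 0.0364). Neither passed in a fit of the male libraries alone (adjusted p = 0.118 and 0.199). With 1 library left out, the male call held in 12 of 12 fits for Pde4b and in 4 of 12 for Prkar2b. That of Prkar2b was also lost with pan-neuronal scaling. No gene of the list passed in females, where 5 had an unadjusted p under 0.05.

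The other TRP channels held no gene that passed. Of 24 genes 15 were tested, 3 had an unadjusted p under 0.05, and DESeq2 and limma each called 1 higher and 2 lower. Among all tested genes these tools called 1385 and 2008 in either direction. The list median was -0.16. Trpm7, a channel fused to a kinase, was at -0.16 ± 0.11 (adjusted p = 0.522).

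Among TRP channel partners and sensitising receptors 25 of 27 genes were tested, of which 1 rose and 2 fell, with a median of -0.17. The share of all tested genes that passed in either direction was 6.52%. Gfra3, the artemin receptor subunit, rose by 0.90 ± 0.10 (adjusted p = 9.43e-05), its mean level going from 26.7 ± 3.52 to 50.1 ± 1.03 CPM between the female groups and from 25.4 ± 1.84 to 47.5 ± 4.28 CPM between the male groups. It also passed in each sex, at 0.91 ± 0.14 in females (adjusted p = 0.00371) and 0.90 ± 0.14 in males (adjusted p = 0.00401), the latter not in a fit of the male libraries alone (adjusted p = 0.0824). Prkce, a kinase that phosphorylates Trpv1, was at -0.29 ± 0.08 (adjusted p = 0.0399) and passed in 1 of the 12 fits that left out a library, the one without Male SNI replicate 2. Its exons overlap those of AC154542.1 on the same strand over 472 bases.

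Plcb3, a phospholipase downstream of G protein coupled receptors, fell in females (log2 change -0.63 ± 0.14, adjusted p = 0.026), from 87.1 ± 10.6 to 56.1 ± 6.16 CPM. That call ended without any single Female SNI library and without Female sham replicate 1 or 2. In males Plcb3 was at 72.5 ± 3.87 CPM in sham and 71.8 ± 8.73 CPM in SNI libraries, and the difference of the sexes did not pass (adjusted p = 0.647). Exons of Plcb3 share 22 bases with Ppp1r14b on the opposite strand, so its value is uncertain. The 2 genes of the list with the most counts, Akap5, an anchor of kinases at the membrane, and Pea15a, were at 0.14 ± 0.18 and 0.30 ± 0.14 and did not pass (adjusted p = 0.778 and 0.281). Exons of Pea15a overlap those of Dcaf8 over 123 bases.

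Of 23 other mechanically gated or acid-sensing channels and their partners 20 were tested, of which 2 rose and 1 fell. Over all tested genes 6.52% passed in either direction. Asic1, an acid-sensing channel, fell (log2 change -0.66 ± 0.15, adjusted p = 0.0144), its mean level going from 56.7 ± 5.85 to 28.1 ± 2.20 CPM between the female groups and from 43.2 ± 1.61 to 34.8 ± 12.9 CPM between the male groups. It passed in females alone at -1.01 ± 0.21 (adjusted p = 0.0177), a call that ended without any single Female SNI library or Female sham replicate 3. Stom, the membrane protein stomatin, rose by 0.63 ± 0.13 (adjusted p = 0.0108). Its Male sham libraries were at 34.8 ± 6.80 and its Male SNI libraries at 82.8 ± 9.31 CPM, while Female sham and SNI libraries were at 71.0 ± 6.04 and 71.0 ± 17.0 CPM. The interaction of Stom was 1.25 ± 0.26 with adjusted p = 0.647. Tmem63c was at 0.76 ± 0.19 (adjusted p = 0.031) and passed in 4 of 12 fits that left out a library: its call ended without any single Female SNI or Male sham library and without Female sham replicate 1 or 3.

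Asic2 and Tmem63b had the most counts in that list and were at -0.20 ± 0.23 and -0.28 ± 0.33, with adjusted p = 0.724 and 0.749. Exons of Tmem63b overlap those of Gm16172 over 288 bases and of Mrpl14 over 106 bases, both on the opposite strand. Piezo1, the second Piezo channel, had a mean of 14.0 ± 2.09 CPM in Female sham, 18.4 ± 3.21 in Female SNI, 15.5 ± 2.62 in Male sham and 14.3 ± 1.62 in Male SNI libraries, with an averaged change of 0.13 ± 0.15 (adjusted p = 0.718). It is named after its values were seen, as the relative of Piezo2. The median change of the list was -0.02.

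**Figure D5:**
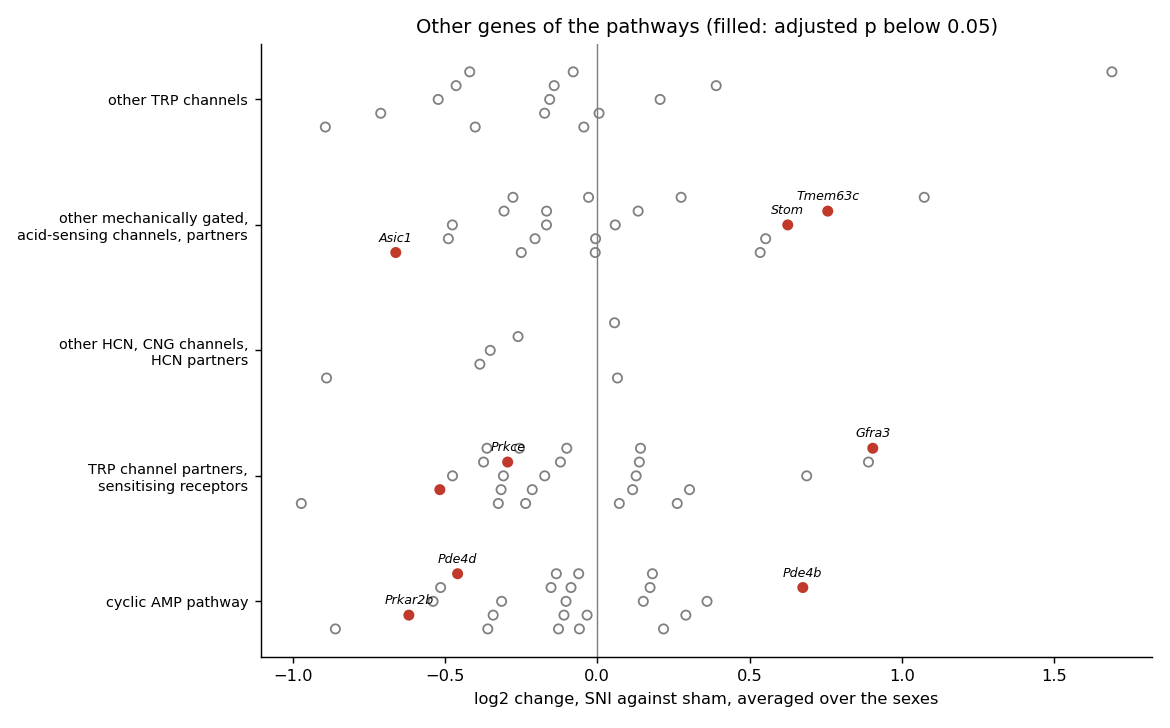
Log2 change after injury averaged over the sexes (horizontal axis) of each tested gene of the 5 lists (rows; vertical offsets within a row only separate the points), with filled red symbols where adjusted p was below 0.05 and names for those described in the text. Named genes lie on both sides of 0, and the rows of other TRP channels and of HCN and cyclic nucleotide gated channels have none.

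For each member, genes with the most similar pattern over the 12 libraries were taken by the root mean square difference of log2 CPM after each gene's own mean was removed, among tested genes with a mean of at least 5 CPM. Hcn2 was closest to Caskin1, Mpp2 and Vstm2l, which differed from it by 0.11, 0.13 and 0.13 against a median of 0.45 over 10856 genes. Piezo2 was closest to Herc2 (0.06), Nfia (0.09) and Chd6 (0.09), against a median of 0.35. Trpa1 was closest to 2610002M06Rik, Tac1 and Rgs3, each at 0.20 to 0.21 against a median of 0.43. For Trpv1 the nearest were Cript (0.08), Usp14 (0.10) and Itfg1 (0.11), for Trpv2 they were Pcnp, Wdr77 and R3hdm1 (all at 0.10), and for Hcn3 they were Frmd6 (0.15), Fam208b (0.18) and Rab35 (0.19). Trpm8 had no close match: the nearest were Plk4, at 0.84, then Tmem145 and 8430408G22Rik, against a median of 1.32. All genes of a library share its depth and scaling, so that likeness is a description.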

How the data were processed

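RNA from mouse dorsal root ganglia was measured by 3′ end sequencing (QuantSeq) in 12 libraries, 3 in each of 4 groups. Each file holds raw counts per gene as the authors deposited them, per the file headers. Bowtie2, bedtools and the mm10 genome are named, without versions, in the submitters' processing notes. Of 23282 rows, 44 repeated the symbol of another row. Totals were 12476606 to 15520746 counts per library, TMM factors 0.914 to 1.07. Counts were filtered with edgeR's filterByExpr (minimum count 10), scaled by TMM and tested over all 12 libraries with edgeR 4.0.16 (R 4.3.3) by the quasi-likelihood test, with 1 coefficient per group, Benjamini-Hochberg adjustment over 15036 genes and a threshold of 0.05. Log2 changes are given ± SE, levels ± SD (n = 3). Alternatives used DESeq2 1.42.0, limma 3.58.1 (voom with quality weights), other scalings, no filter, no Rn45s row, a replicate block and libraries left out. The fit was tested on simulated data: for injury averaged over the sexes, 94 of 100 genes changed by 1 on the log2 scale and 20 of 100 changed by 0.5 were called, with 6 false calls among 120, over 14739 genes. Changed genes had a mean of at least 5 CPM, spread was taken from its trend over level, and no library stood apart. These rates therefore do not cover Trpm8 (mean 0.615 CPM) or a library such as Male SNI replicate 2.

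The members and lists were chosen with earlier results of these data known. Named genes are the members; of each list, every gene called in any comparison and the 2 with the highest mean CPM; and for each member the 3 genes of most similar pattern. Pex5l and Piezo1 fall outside that rule. Some genes that the rule names are not reported here. No 2 replicates agreed within sampling noise. Deviations of same-numbered libraries correlated at -0.0906 to 0.425, over 0.1 in 3 of 18 pairs, so the numbers were not taken as pairs. These 3 are the same-numbered pairs of Female sham with Male SNI (0.114, 0.425 and 0.100). No comparison sets these groups against each other alone, but the averaged change has them on opposite sides and the interaction uses both. Female sham replicate 1 correlated more with Male SNI replicate 3 (0.355). Sequences are RefSeq's for GRCm38.p6, and exon overlaps are from GENCODE vM21.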

Additional observations from a re-analysis of the deposited data

Results flagged for a closer look

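Trpm8 is singled out because its SNI and sham libraries separated in opposite directions in the sexes, upward in females (22 counts in sham, 46 in SNI) and downward in males (35 counts in sham, 0 in SNI). The interaction had an unadjusted p of 0.00138 and an adjusted p of 0.647 (edgeR's quasi-likelihood test), so it does not pass over all tested genes. Among the 15036 tested genes, 41 separated in this way and 34 in the reverse way. Trpm8 was among the tested genes only through its Female SNI libraries, where it was highest, so its separation is not independent of the filter.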

How the results depend on the processing

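Hcn2 passed in all 21 alternatives for injury averaged over the sexes and all 22 in females. Members called rose from 1 to 2 for the average with limma and with Male SNI replicate 2 and Female sham replicate 2 both left out, and in females with limma (adding Piezo2); leaving out 1 library gave 1 to 2 in both. In males they rose from 0 to 1 (Trpm8) with total counts only, pan-neuronal scaling, no filter, no Rn45s row and DESeq2, and ranged from 0 to 1 with 1 library left out. DESeq2 called 1 (Trpm8) between males and females after injury, among 10 genes called there. Over all genes limma called 1562 in females, and DESeq2 called 666 in males. All genes called, 980, came to 2008 with limma, 1848 with both libraries left out, and 626 to 1766 with 1 left out (1766 without Male SNI replicate 2). For the cyclic AMP pathway DESeq2 called 5 lower and limma 6, and for TRP partners limma called 9 lower. Over all tested genes DESeq2 called 1385 and limma 2008 in either direction. Lower calls alone were not counted over all genes for these tools, so the lists are not shown to lean downward. The cause was not tested for any of these changes.

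Small estimates changed sign. With 1 library left out, the log2 change of Trpv2 ranged from -0.033 (without Male SNI replicate 3) to 0.16 for the average, from -0.014 (Female sham replicate 2; -0.0021 without Female SNI replicate 3) to 0.23 in females, and from -0.14 (Male SNI replicate 3; -0.0059 without Male sham replicate 2) to 0.24 in males. That of Piezo2 in males ranged from -0.35 (Male SNI replicate 2) to 0.058 (Male SNI replicate 1; 0.037 and 0.0040 without replicate 3 of Male SNI or of Male sham). Trpm8 in sham males against females ranged from -0.087 (Male sham replicate 2) to 1.20. Total counts put Trpv2 in males at -0.013, and pan-neuronal scaling put Trpv1 and Piezo2 in males at 0.027 and 0.052. With both libraries left out, Trpv2 in females was at -0.0089 and the Piezo2 interaction at -0.063.

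With the replicate number as a block, Hcn2 was at -0.64 (adjusted p = 0.00181), 1 member passed and 936 genes were called. Depth limits Trpm8 most, with at most 21 counts per library.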

Other observations

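Of the 15036 tested genes 4 had no count in any Male SNI library, and 1 of these, Trpm8, had at least 30 counts over the Male sham libraries, a limit set after the values were seen. The same held for 8 of 24 genes at 0 in Female sham, 2 of 8 in Female SNI and 6 of 9 in Male sham, each against the other operation in the same sex. Skeletal muscle markers summed to 1454 CPM in Male SNI replicate 1 and to 35.3 and 44.1 CPM in the other Male SNI libraries, with 67.6 CPM in Male sham replicate 2, 57.0 CPM in Female SNI replicate 3 and 6.60 to 25.3 CPM in the rest.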
